A study of Homo sapiens with 68 samples.

Results

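Interferon-stimulated genes were followed in A673 Ewing sarcoma cells exposed to 3 cytotoxic compounds. The list held 44 genes chosen by name as induced by interferon. Of these, 42 had a probe set carrying their symbol alone, out of 11882 genes so represented among 22215 tested probe sets, and STAT2 and IRF7 were not analysed here. Each gene was read from its brightest probe set. A673 is an established line that carries the EWS/FLI fusion. Cells received DMSO vehicle, ARA-C (cytarabine, a nucleoside analogue that blocks DNA synthesis), doxorubicin (a topoisomerase II poison) or puromycin (which ends translation prematurely). ARA-C was given at 0.17 or 0.34 µM, doxorubicin at 59.88 or 119.76 nM and puromycin at 0.09 or 0.18 µM, the lower dose of each being its EC50 (the median effective concentration) and the higher 2 times that. Cells were taken after 24 h, 3 days or 5 days, with vehicle cells at each time (n = 6, 5 and 6). Treated groups had 3 arrays, except doxorubicin 119.76 nM at day 5 (n = 2), puromycin 0.18 µM at day 5 (n = 1) and puromycin 0.09 µM at day 5, where replicate 3 was left out and 2 remained.

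Interferons are secreted by cells that sense foreign or misplaced nucleic acid. They bind receptors whose kinases, JAK1 and TYK2, phosphorylate transcription factors of the STAT family, STAT2 among them. With IRF9 these bind a short DNA element, the interferon-stimulated response element (ISRE), in front of many of the genes described here. Interferon gamma also acts through a different element, GAS. The products include sensors of viral RNA and DNA, enzymes and membrane proteins that block virus replication, the ubiquitin-like protein ISG15 with its conjugating enzymes, and parts of the antigen-processing machinery.

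The ISRE is visible in most of the member promoters that could be searched. Of the 42 genes, 33 had an entry among the RefSeq promoters (GRCh38.p14, 250 bases before to 50 after the annotated start), and a search of both strands for the ISRE core GAAANNGAAA found it in 22 of them, 66.7%, against 4.38% of all 27305 genes with a promoter. The GAS core TTCNNNGAA, searched in the same way, was in 11 of the 33, 33.3%, against 9.38% of all genes. RIGI, UBE2L6, OAS1, SP110, IFI16 and ADAR were among the members with an entry but no ISRE core. A match is a description of the letters and not evidence of binding in these cells. The 8 windows below belong to members whose signals are described in detail, are 40 bases long, are written 5′ to 3′ on the strand of the gene, and show the ISRE core in capitals, either as GAAANNGAAA or as its reverse complement.
HERC5, chr4:88457030-88457069, plus strand: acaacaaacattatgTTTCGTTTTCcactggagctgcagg
ISG15, chr1:1013375-1013414, plus strand: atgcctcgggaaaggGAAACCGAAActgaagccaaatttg
IFIT1, chr10:89392505-89392544, plus strand: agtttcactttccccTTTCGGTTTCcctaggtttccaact
IFI6, chr1:27672261-27672300, minus strand: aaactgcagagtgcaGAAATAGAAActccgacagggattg
IFITM1, chr11:313985-314024, plus strand: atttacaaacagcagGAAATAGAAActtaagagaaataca
IFITM3, chr11:320871-320910, minus strand: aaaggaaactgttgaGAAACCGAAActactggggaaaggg
LGALS3BP, chr17:78979957-78979996, minus strand: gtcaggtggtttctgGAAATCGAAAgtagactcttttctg
GBP1, chr1:89065311-89065350, minus strand: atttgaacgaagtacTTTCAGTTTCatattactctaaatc

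The arrays carried the RNA of A673 cells. Across the 67 arrays in the fit, the EWS/FLI target NKX2-2 gave signals from 1379 to 9661, CD99 from 6792 to 13610 and FLI1, whose probe set reports the fusion partner, from 570.5 to 3762. On the array left out, NKX2-2 read 156.1 and CD99 1190. FLI1 read 3919 there, so that its signal does not mark A673 cells alone. The blood cell markers (18 genes) summed to between 140.5 and 1588 per array, with HBB at a median of 17.1, and on the array left out they summed to 98780. Of 9 endothelial and epithelial markers, up to 6 rose in a comparison (doxorubicin 59.88 nM, day 5). PECAM1 rose in 11 of the 18 comparisons with vehicle, KRT18 in 10 and KRT8 in 8, while VWF and EPCAM lay under 10 on 54 and 30 of the 67 arrays. Their part in the results was not tested. ARA-C 0.17 µM day 3 replicate 3 and ARA-C 0.34 µM 24 h replicate 2 stood apart, with a 10th percentile of signal of 34.5 and 22.1 against an all-array median of 3.43, so that dim genes read high on them. The single puromycin 0.18 µM day 5 array had a smaller shift, with a 10th percentile of 12.4 and 5.8% of its signals under 10. It was kept where those 2 arrays were removed. RNA quality moved with treatment and time. The ratio of 3′ to 5′ actin signal, a measure of RNA breakdown, averaged 1.29 on the log2 scale in vehicle at day 5 but 3.71 with ARA-C 0.17 µM, 4.55 with doxorubicin 119.76 nM and 4.13 with puromycin 0.18 µM. At day 3 it averaged 0.533 in vehicle, 1.31 with ARA-C 0.17 µM and 1.7 with 0.34 µM. At 24 h the vehicle mean was 0.817, with 1.79 and 0.657 at the 2 ARA-C doses. Arrays lay in 2 parts of 1 plate, rows A-F and rows G-H. Vehicle replicates 1 to 3 were in A-F and 4 to 6 in G-H, all ARA-C 0.34 µM arrays and the puromycin 0.18 µM day 5 array were in G-H, and every other treated array was in A-F.

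Signals are array intensities on a linear scale, and no probe set was compared in level with another. Changes are differences of mean log2 signal, after values under 10 were set to 10, and are given ± SE where an error is shown. A member was said to rise or fall where limma's Benjamini-Hochberg adjusted p over all 22215 probe sets was under 0.05. Background shares are over all these probe sets, dim ones included. Each member was read from its brightest, so members and background are not matched for signal. Bulk RNA cannot tell a change per cell from a change in which cells survive. IFIT2 and PSMB8 stayed under a mean of 32 in every group and were under 10 on 62 and 55 of 67 arrays. TAP1, PSMB9, HERC6, MX2, MX1 and BST2 were under 10 on 57, 46, 45, 36, 35 and 28 arrays, so that little can be said of them.

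The vehicle cells themselves moved, and differently in the 2 plate parts. Between 24 h and day 3, only ISG15 rose (0.75, adjusted p = 3.8e-07), while ADAR fell by 0.30 and IFITM2 fell by 0.59, and the shares of all probe sets that rose and fell were 1.44% and 1.72%. Between 24 h and day 5, 15 of 42 members rose and SP110 alone fell (background 13.2% and 10.7%), and between day 3 and day 5, 17 rose and none fell (12.1% and 9.01%). IFITM1, a membrane barrier to virus entry, read 767, 780.4 and 684 at day 5 in rows A-F and 3109.7, 3209 and 3275 in rows G-H. IFITM3, its neighbour on chromosome 11, read 2428, 2670.3 and 2103 and 6475, 5868 and 6078 in the same order. LGALS3BP, a secreted glycoprotein, read 272, 209 and 196 and 803, 950.4 and 722. In all 3 genes the 2 sets of day 5 vehicle arrays were far apart, with no overlap. RNA quality split the same 2 sets, with a log2 ratio of 3′ to 5′ actin signal of 1.92 to 2.08 in rows A-F and 0.529 to 0.664 in rows G-H, as did the median signal of the array, at 108.7 to 119.7 and 154.5 to 157.8. Neither measure overlapped between the sets, and their part in the gap was not tested.

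Comparing rows G-H with rows A-F directly, 12 of 42 members were higher and 3 lower in vehicle at day 5 (background 15.5% and 6.62%). At 24 h, UBE2L6 alone differed (background 0.117% and 0.329%), and at day 3 none did by limma (0.122% and 0.671%; 3 members at unadjusted p under 0.05). The largest day 5 gaps were in OAS3 (2.85), BST2 (2.83), IFIH1 (2.74), OAS1 (2.45) and IFITM1 (2.11), and SP110, IFIT5 and ADAR were the 3 lower in G-H, by -0.82, -0.83 and -0.46. Within rows A-F alone, 6 members rose from 24 h to day 5, namely IFIT1, TRIM21, GBP2, ISG15, HERC5 and IFI6, against a background of 4.28%. Within rows G-H, 20 rose and 1 fell (19.9% and 9.24%). Changes at day 5 are against all 6 vehicle arrays unless the 3 of the same plate part are named. Whether the gap comes from the plate or from separate cultures was not tested.

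**Figure D1:**
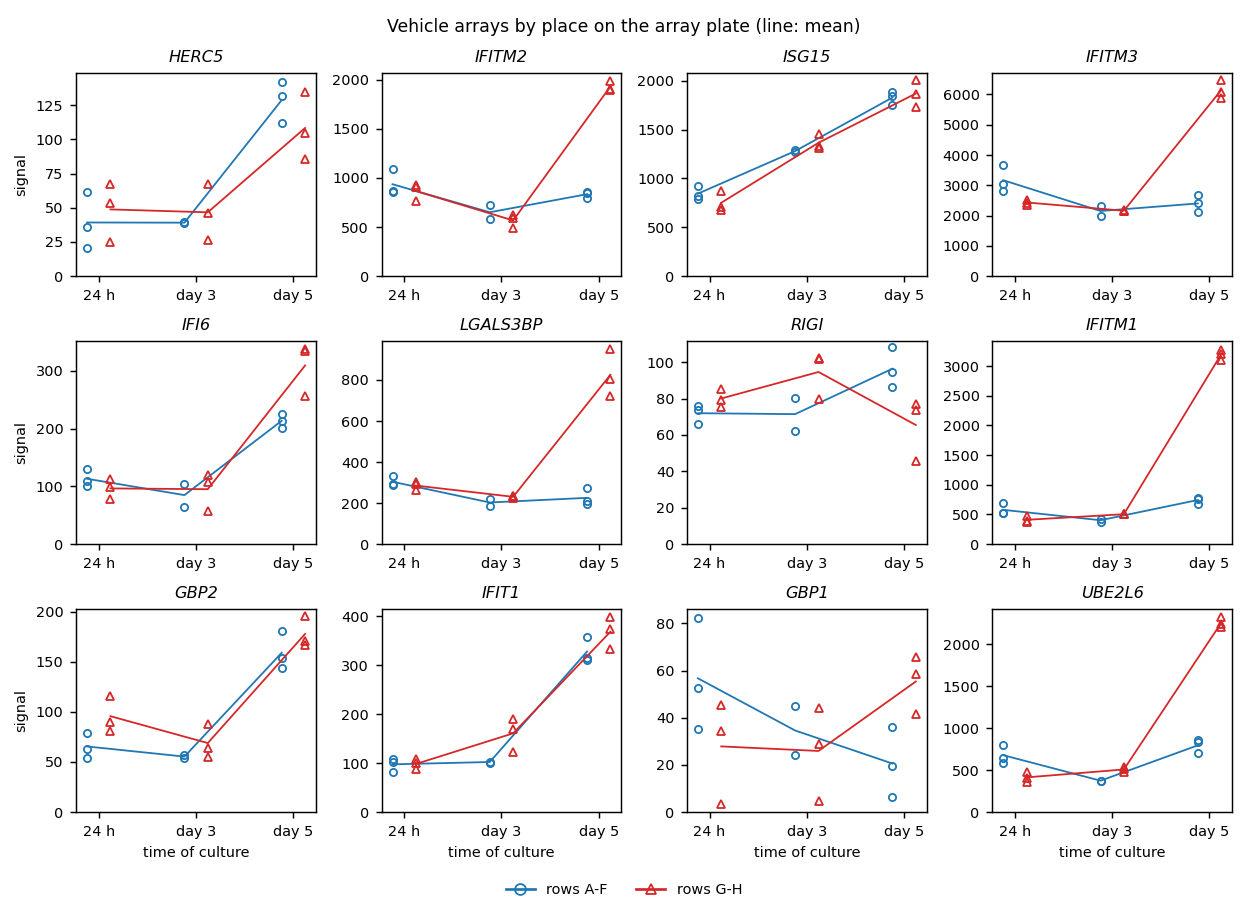
Signal of 12 members on each vehicle array (linear axis) at 24 h, day 3 and day 5, with circles for rows A-F of the plate, triangles for rows G-H and lines through their means. At day 5 the 3 arrays in rows G-H lie above those in rows A-F for IFITM1, IFITM2, IFITM3, UBE2L6 and LGALS3BP.

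Against vehicle of the same time, 39 of the 42 members rose or fell in at least 1 of 18 comparisons, and IFI27, ISG20 and PSMB9 in none. The share of all probe sets called at least once was not counted. Single comparisons called up to 15.8% of all probe sets as rises and 38% as falls, so the 39 is no trait of these genes. The comparisons at 1 time share their vehicle arrays and are not independent of each other. With ARA-C 0.17 µM, 9 members rose at 24 h and none fell (background 5.42% and 8.97%), 22 rose at day 3 and none fell (14.5% and 7.92%), and 8 rose and 13 fell at day 5 (10.3% and 38%). With ARA-C 0.34 µM, 20 rose at 24 h (6.66% and 2.21%), 17 at day 3 (9.95% and 8.05%) and 11 at day 5, where 3 fell (11.4% and 13.6%). No member fell with ARA-C at 24 h or day 3 at either dose, and at day 5 the shares of members that fell were no larger than the background. At day 3 the median change of the 42 members was 1.10 with 0.17 µM and 0.81 with 0.34 µM, while that of all probe sets was 0.28 and 0.00.

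The 2 arrays with raised low signals carried part of these counts. Without them, 12 members rose at day 3 with 0.17 µM, all among the 22 (background 5.62%, member median 0.78). These were OAS1, GBP1, GBP2, IFITM2, ISG15, UBE2L6, HERC5, USP18, RIGI, SP110, IFI6 and LGALS3BP. At 24 h with 0.34 µM, 13 of the 20 remained (background 3.08%, member median 0.68), and OAS3, EIF2AK2, GBP1, IFITM3, SP110, IFI44L and LGALS3BP no longer passed. Quantile normalization sets the distributions of all arrays equal. It gave 18 rises and 1 fall at day 3 with 0.17 µM and 11 rises at 24 h with 0.34 µM. At day 5 with 0.17 µM it gave 12 rises and 3 falls, and moved the median of all probe sets from -0.28 to 0.00. The shares of all probe sets called after quantile normalization were not counted, so no background stands beside these counts or those below.

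With doxorubicin 59.88 nM, 3 members rose at 24 h and none fell (2.52% and 2.75%), 12 rose and IFIT5 fell at day 3 (9.03% and 11.1%), and 4 rose and 11 fell at day 5 (12.1% and 29.2%). At 119.76 nM, 5 rose and ISG15 fell at 24 h (6.59% and 7.72%), 10 rose and 3 fell at day 3 (11.5% and 11.1%), and 8 rose and 11 fell at day 5 (15.8% and 37.9%). The day 3 rises of doxorubicin stood above the background share, whereas the shares that fell at day 5 did not. After quantile normalization, for which no background was counted, the day 5 split was 7 rises and 6 falls at 59.88 nM and 12 and 7 at 119.76 nM.

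Puromycin gave few rises. At 0.09 µM, HERC5 rose and 3 members fell at 24 h (2.09% and 8.41%), HERC5 rose and 5 fell at day 3 (0.675% and 2.4%), and none rose and 12 fell at day 5 (5.31% and 12.1%). At 0.18 µM, 3 rose and 2 fell at 24 h (3.31% and 4.29%), HERC5 rose and 7 fell at day 3 (4.32% and 7.13%), and on the single array at day 5, 2 rose and 17 fell (12.8% and 33.8%). That lone array was assumed to vary like the other groups, and its low signals were shifted up (10th percentile 12.4). Quantile normalization gave 2 rises and 2 falls at 0.09 µM and 24 h, 2 and 10 at 0.09 µM and day 5, 4 and 2 at 0.18 µM and 24 h, and 3 and 12 at 0.18 µM and day 5.

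**Figure D2:**
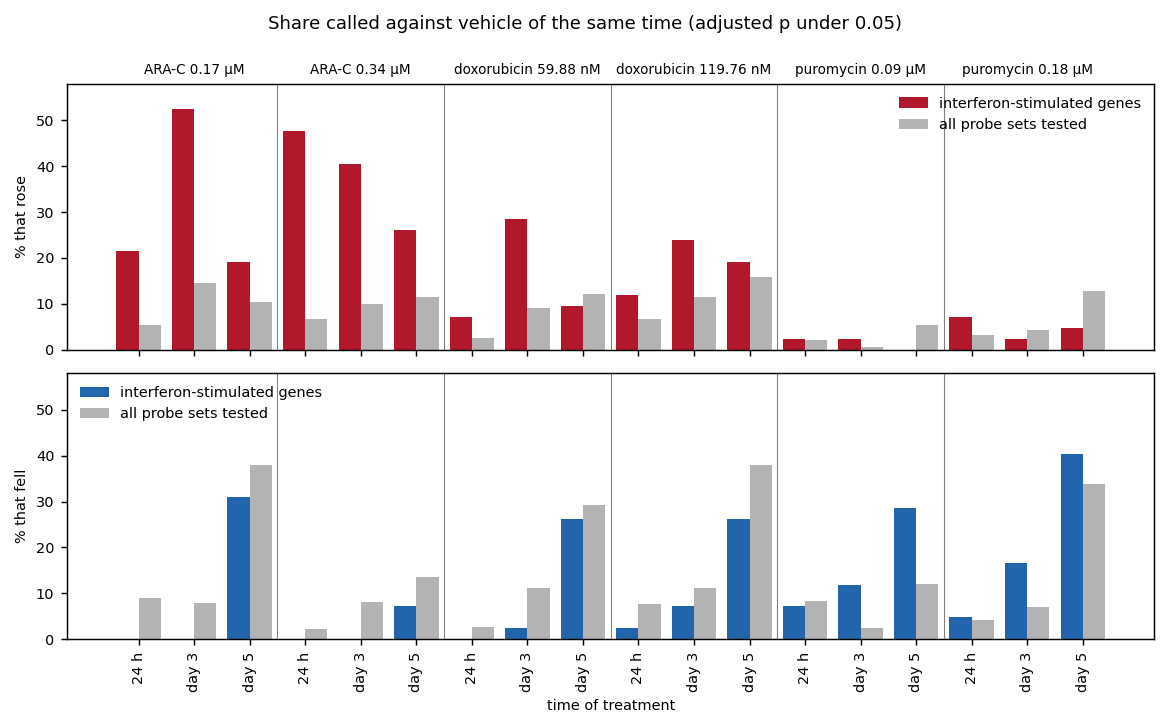
Percent of the 42 members (coloured bars) and of all 22215 probe sets (grey bars) that rose (upper panel) or fell (lower panel) against vehicle of the same time in each of 18 comparisons. Among the members, ARA-C at 24 h and day 3 has rises only, and puromycin has mostly falls.

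**Figure D3:**
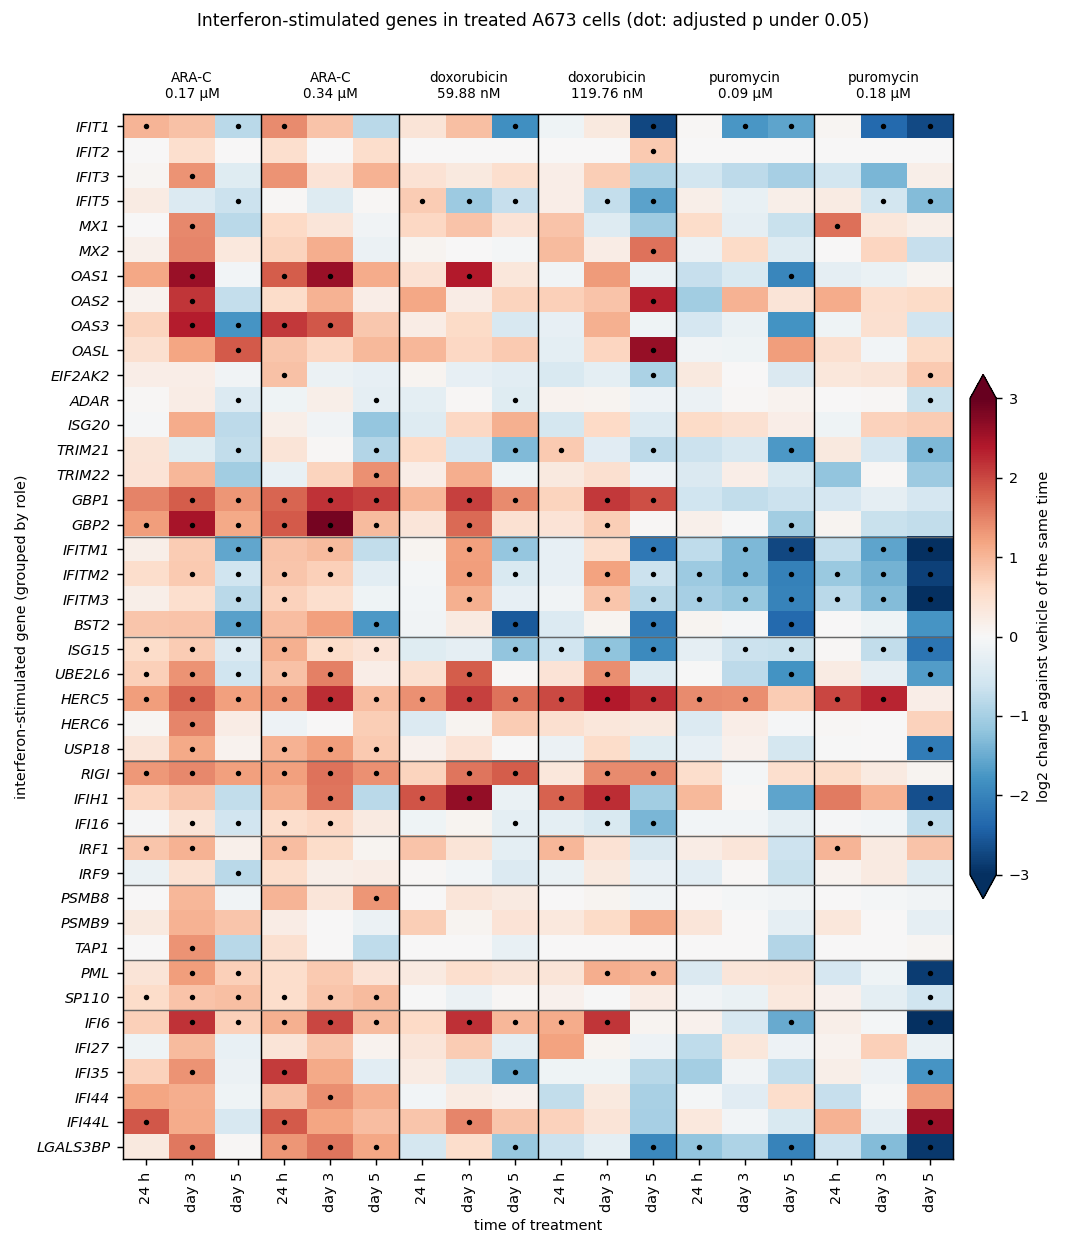
Log2 change of each of the 42 members (rows, ordered by role) against vehicle of the same time in 18 comparisons (columns), with a dot where limma's adjusted p was under 0.05. HERC5 is raised across nearly the whole row, and the IFITM genes are above vehicle with doxorubicin at day 3 and below it with puromycin at every time.

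The ISG15 conjugation system held the member called most often. HERC5, the ligase that attaches ISG15 to newly made proteins, rose in 16 of 18 comparisons and fell in none, and was the only member to rise in all 3 compounds at both 24 h and day 3. In vehicle it read from 20.3 to 67.5 with a median of 44.8 at 24 h and 39.6, 38.6, 26.8, 67.5 and 45.8 at day 3. With ARA-C 0.17 µM it read 85.6, 79.3 and 129 at 24 h and 174, 156 and 98.8 at day 3, and with 0.34 µM 91.6, 128 and 83.3, then 169.7, 204 and 213. With doxorubicin 59.88 nM the values were 121, 82.3 and 109 at 24 h and 170.0, 164 and 186 at day 3. Every one of these treated arrays lay above all vehicle arrays of its time. With puromycin 0.09 µM HERC5 read 132.7, 117 and 76.98 at 24 h and 149, 102 and 84.4 at day 3, again above all vehicle arrays. The log2 changes at day 3 were 1.74 ± 0.30, 2.22 ± 0.30, 2.05 ± 0.30, 2.39 ± 0.30, 1.38 ± 0.30 and 2.27 ± 0.30 for the 2 doses of ARA-C, doxorubicin and puromycin in that order, with adjusted p from 5.2e-09 to 0.0022. Quantile normalization also gave 16 rises.

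At day 5 HERC5 in vehicle ranged from 85.7 to 142 with a median of 122. Doxorubicin 119.76 nM gave 435 and 645, the highest HERC5 group of the series, and 59.88 nM gave 417, 338 and 333. The changes were 2.18 ± 0.33 and 1.63 ± 0.29 against all vehicle arrays and 2.05 and 1.49 against those of rows A-F. Puromycin 0.09 µM at day 5 (198 and 196) lay above vehicle without passing the test (0.76 ± 0.33, adjusted p = 0.11).

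ISG15 itself, the modifier, rose with ARA-C at 24 h and day 3, whereas with doxorubicin and puromycin it fell in 4 comparisons each and rose in none. In vehicle it read from 672 to 925 with a median of 804 at 24 h, 1270.1, 1291, 1455, 1332 and 1311 at day 3, and from 1732 to 2011 with a median of 1857 at day 5. With ARA-C 0.17 µM it read 1266, 1155 and 1086 at 24 h and 2382, 2232 and 2116 at day 3, and with 0.34 µM 1617, 1729 and 1607 and 2213, 2088 and 1581. All of these were above all vehicle arrays of the same time. The changes were 0.56 ± 0.11 and 0.75 ± 0.12 at 0.17 µM and 1.06 ± 0.11 and 0.54 ± 0.12 at 0.34 µM (adjusted p from 1.2e-09 to 0.00049).

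Doxorubicin moved ISG15 the other way. At 119.76 nM the arrays read 558, 469 and 556 at 24 h, 569, 662 and 507 at day 3 and 411 and 579.9 at day 5, all under all vehicle arrays of the same time. The changes were -0.59 ± 0.11, -1.21 ± 0.12 and -1.92 ± 0.13, the last with adjusted p = 2.5e-18 and -1.91 within rows A-F. At 59.88 nM the fall passed the test at day 5 alone (888, 806 and 739, -1.19 ± 0.11, and -1.18 within rows A-F), with changes of -0.36 at 24 h and -0.27 at day 3. With puromycin ISG15 changed by -0.64 at 0.09 µM and -0.73 at 0.18 µM at day 3, and by -0.67 and -2.20 at day 5, where vehicle of the same plate part gave -0.66 and -2.21. At day 5 with ARA-C the 2 doses differed in sign, with 1484, 1306 and 1418 at 0.17 µM and 2557, 2273 and 2597 at 0.34 µM. The changes were -0.40 ± 0.11 and 0.42 ± 0.11, and -0.38 and 0.40 against the same plate part. Quantile normalization turned the 0.17 µM value to 0.40.

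UBE2L6, the enzyme that passes ISG15 to the ligase, rose at day 3 with ARA-C and with doxorubicin. It read 377, 372, 514, 532 and 478 in vehicle, 1122, 1116 and 1214 with ARA-C 0.17 µM and 1484, 1787 and 1485 with doxorubicin 59.88 nM, with no overlap (1.36 ± 0.24 and 1.81 ± 0.24, adjusted p = 4.1e-05 and 4.6e-08). With puromycin 0.09 µM it read 245, 269.9 and 266 at day 3, under all vehicle arrays but short of the threshold (-0.79 ± 0.24, adjusted p = 0.061), and it fell at day 5 (-1.79 ± 0.27 against all vehicle arrays, -1.04 within rows A-F). Its day 5 value with doxorubicin 59.88 nM was 0.04 against all 6 vehicle arrays and 0.79 against rows A-F, where it passed the test. USP18, which strips ISG15 from proteins and restrains the interferon receptor, read 77.1, 83.3, 102, 134 and 85.1 in vehicle at day 3 and 182, 211 and 228 and 229.9, 230.5 and 212 at the 2 ARA-C doses. The 2 ARA-C groups lay above all vehicle arrays (1.13 ± 0.25 and 1.25 ± 0.25). With doxorubicin the USP18 changes were 0.42 and 0.54, neither past the threshold, which does not by itself show a difference between the compounds. HERC6, a relative of HERC5, rose once, with ARA-C 0.17 µM at day 3, on arrays reading 25.4, 2 and 84.8 against vehicle arrays all under 10. The highest of these was the array with raised low signals, and the call was lost without it.

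**Figure D4:**
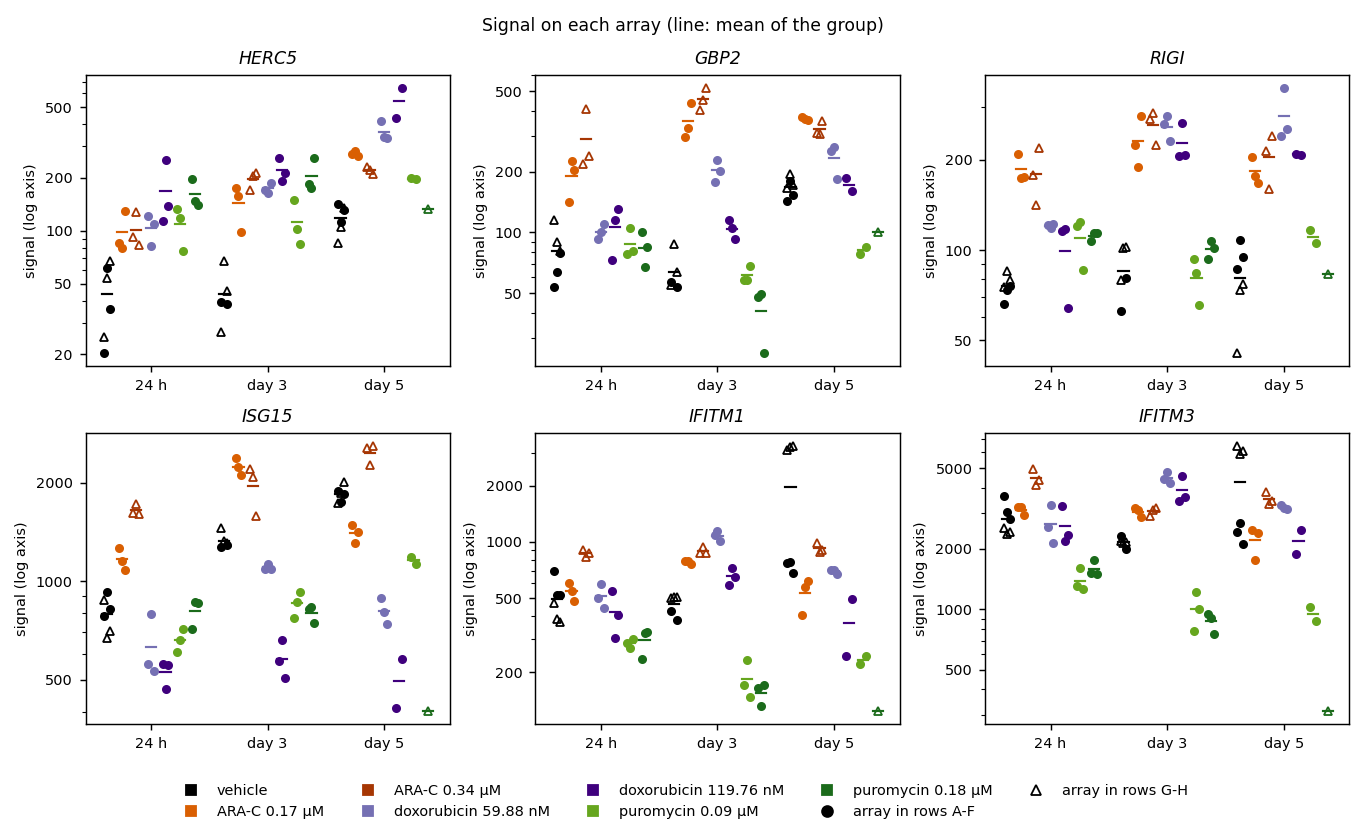
Signal of HERC5, GBP2, RIGI, ISG15, IFITM1 and IFITM3 on each array (log axis) by time and treatment, with lines at group means and open triangles for rows G-H. GBP2 is highest with ARA-C at day 3, and the IFITM genes are lowest with puromycin. Mean ISG15 is above vehicle with ARA-C at 24 h and day 3, and below it with doxorubicin.

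Among the 17 antiviral effectors, the guanylate-binding proteins, GTPases that attack pathogen membranes, were among those that rose with ARA-C, GBP2 in all 6 ARA-C comparisons and GBP1 in 5. GBP2 read 57.1, 53.6, 54.9, 88.1 and 63.6 in vehicle at day 3, 296, 327 and 439 with ARA-C 0.17 µM and 404, 451 and 519 with 0.34 µM. Every ARA-C array was more than 3 times the highest vehicle array. The changes of 2.48 ± 0.24 and 2.87 ± 0.24 (adjusted p = 1.2e-11 and 3.7e-14) were the largest at day 3 after OAS1 and the largest of all, in that order of dose. At 24 h GBP2 read from 53.7 to 116 with a median of 80.2 in vehicle, 141, 225 and 204 with 0.17 µM and 219, 409 and 239.7 with 0.34 µM (1.25 ± 0.23 and 1.83 ± 0.23). Both ARA-C groups were above all vehicle arrays, and GBP2 rose at day 5 too, by 1.13 and 0.95 against all vehicle arrays and 1.21 and 0.87 within plate part.

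With doxorubicin GBP2 rose at day 3 alone, to 179, 229 and 202 at 59.88 nM and 115, 105 and 92.5 at 119.76 nM (1.70 ± 0.24 and 0.73 ± 0.24). The lower dose gave the higher values. Puromycin 0.18 µM at day 3 gave 47.7, 49.7 and 25.3, under all vehicle arrays but short of the threshold (adjusted p = 0.055). GBP1 read 45.0, 24.3, 28.7, 4.72 and 44.4 in vehicle at day 3. It read 119, 126 and 56.1 with ARA-C 0.17 µM, 106, 126 and 129 with 0.34 µM, and 130.5, 85.1 and 122 and 85.5, 148 and 128 at the 2 doxorubicin doses. All 4 groups lay above vehicle, with changes from 1.82 to 2.16, and GBP1 rose in 9 comparisons and fell in none. With puromycin 1 array in each group at 24 h and day 3 was under 10 and the groups overlapped vehicle. Against vehicle of rows A-F, the day 3 rises with ARA-C 0.17 µM and doxorubicin 59.88 nM did not pass (adjusted p = 0.13 and 0.061), nor did the day 5 rise with ARA-C 0.34 µM within rows G-H (1.30, adjusted p = 0.091). A second GBP1 probe set passed in the same direction in 8 of the 9.

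The IFIT genes, whose products bind viral RNA lacking host marks, did not move as a block. IFIT1 read from 81.8 to 109 with a median of 101 in vehicle at 24 h, 202, 209 and 183 with ARA-C 0.17 µM and 259, 249 and 277 with 0.34 µM. These arrays were above all vehicle arrays (1.02 ± 0.33 and 1.42 ± 0.33, adjusted p = 0.028 and 0.0027), although quantile normalization left no IFIT1 rise past the threshold. At day 5 IFIT1 in vehicle ranged from 311 to 399 with a median of 346, and the treated arrays read 102, 109 and 83.1 with doxorubicin 59.88 nM, 21.1 and 130.1 with 119.76 nM, and 112 and 118 with puromycin 0.09 µM. All were under all vehicle arrays, by -1.83 ± 0.33, -2.73 ± 0.38 and -1.59 ± 0.38, and vehicle of rows A-F gave -1.75, -2.65 and -1.51. With puromycin IFIT1 already fell at day 3, reading 30.1, 66.5 and 31.2 at 0.09 µM and 46.6, 10.3 and 39.0 at 0.18 µM against 103, 101, 123, 169.6 and 191 in vehicle (-1.75 ± 0.34 and -2.33 ± 0.34). IFIT5 rose once, with doxorubicin 59.88 nM at 24 h (0.77), and fell in 7 comparisons. The largest fall was with doxorubicin 119.76 nM at day 5 (-1.60 ± 0.21, and -2.02 within rows A-F). A second IFIT5 probe set had the same sign in 8 of these 8 comparisons and passed the test in 2. IFIT3 rose once, with ARA-C 0.17 µM at day 3, and lost that call without the array with raised low signals. IFIT2 was called once, with doxorubicin 119.76 nM at day 5, where its vehicle arrays were all under 10, and did not pass within rows A-F (adjusted p = 0.065).

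The OAS enzymes make the messenger that activates RNase L on double-stranded RNA. OAS1 read 33.1, 24.3, 2.24, 5.13 and 3.32 in vehicle at day 3, and 75.1, 92.7 and 108 with ARA-C 0.17 µM, 102, 65.2 and 114 with 0.34 µM and 84.3, 72.2 and 80.8 with doxorubicin 59.88 nM. These 3 groups lay above vehicle, with changes of 2.58 ± 0.55, 2.59 ± 0.55 and 2.38 ± 0.55, for which 3 of the 5 vehicle arrays were set to the floor. In the 5 comparisons that called OAS1, a second OAS1 probe set had the same sign and passed the test in 2. OAS3 read 27.1, 48.4 and 228 with ARA-C 0.17 µM at day 3 against 7.54, 1.96, 15.1, 18.7 and 13.98 in vehicle (2.35 ± 0.66), where the highest value belongs to the array with raised low signals and the call was lost without it. At day 5 OAS3 fell with ARA-C 0.17 µM (-1.76), a gene whose vehicle arrays read 2.15, 16.4 and 13.3 in rows A-F and 82.0, 98.5 and 102 in rows G-H, and against rows A-F its value was -0.34 (adjusted p = 0.74). OAS2 and OASL rose at day 5 with doxorubicin 119.76 nM, OAS2 to 76.2 and 88.0 and OASL to 99.7 and 59.3 (2.31 and 2.61), with n = 2 and a mean 3′ to 5′ actin log2 ratio of 4.55. Within rows A-F OAS2 gave 1.65 and did not pass (adjusted p = 0.068), and OASL gave 2.94. In the 2 comparisons that called OAS2, a second OAS2 probe set had the same sign and did not pass. EIF2AK2, the kinase PKR that halts translation on double-stranded RNA, rose with ARA-C 0.34 µM at 24 h (0.89) and on the single puromycin 0.18 µM array at day 5 (0.78), and fell with doxorubicin 119.76 nM at day 5 (-0.94, and -0.78 within rows A-F). The ARA-C call was lost without the array with raised low signals (adjusted p = 0.08) and the puromycin call within rows G-H (adjusted p = 0.13). ADAR, which edits double-stranded RNA, fell in 4 comparisons, all at day 5, by -0.27 to -0.67, the smallest of which, with ARA-C 0.34 µM, was -0.05 within rows G-H. TRIM21, an antibody receptor inside the cell, rose in 1 comparison and fell in 6, all at day 5, of which ARA-C 0.17 µM and doxorubicin 119.76 nM did not pass within rows A-F (adjusted p = 0.068 and 0.073). MX1 and MX2, dynamin-like GTPases that trap viral particles, rose in 2 comparisons and 1, on arrays near the floor, and TRIM22, an antiviral ligase, rose in 1, with ARA-C 0.34 µM at day 5 (1.38, and 2.00 within rows G-H). ISG20, an exonuclease of viral RNA, passed the test in none of the 18.

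Of the 4 membrane proteins, the IFITM genes set puromycin apart. At the EC50 and day 3, IFITM1, IFITM2 and IFITM3 were higher with doxorubicin than with puromycin by 2.58, 2.60 and 2.19, and with ARA-C by 2.11, 2.12 and 1.63. ARA-C and doxorubicin differed by -0.47, -0.48 and -0.56 (adjusted p = 0.4, 0.15 and 0.12), none past the threshold. IFITM1, IFITM2 and IFITM3 hold back virus entry and lie next to each other on chromosome 11, between 307816 and 320860 (GRCh38.p14). Their probe sets are of the kind Affymetrix marks as able to hybridise to related transcripts, so their signals may mix. IFITM3 read 2321, 1981, 2194, 2136 and 2148 in vehicle at day 3. With doxorubicin 59.88 nM it read 4435, 4821 and 4254 and with 119.76 nM 3451, 4607 and 3607, above all vehicle arrays (1.06 ± 0.21 and 0.84 ± 0.21). With puromycin 0.09 µM it read 782, 1212 and 1008 and with 0.18 µM 952, 906 and 758, under all vehicle arrays (-1.13 ± 0.21 and -1.31 ± 0.21). With ARA-C it read 3181, 3120.2 and 2854 and 2904, 3113 and 3186, above vehicle and between the other compounds, without passing (0.50 and 0.51, adjusted p = 0.078 and 0.093). Against vehicle of the same plate part both ARA-C values passed (0.51 and 0.51).

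IFITM1 and IFITM2 were placed likewise at day 3, with doxorubicin above vehicle and puromycin below it. IFITM1 read 425, 381, 501, 509 and 504 in vehicle, 1086, 1145 and 1009.6 with doxorubicin 59.88 nM and 172, 232 and 148 with puromycin 0.09 µM (1.23 ± 0.31 and -1.35 ± 0.31). IFITM2 read 722, 578, 487, 619 and 595, 1402, 1470.2 and 1388 and 191, 263 and 258 in the same groups (1.25 ± 0.19 and -1.34 ± 0.19). No doxorubicin or puromycin array of these groups overlapped vehicle. ARA-C raised IFITM2 at both doses (0.78 and 0.72) and IFITM1 at 0.34 µM (0.96). Both IFITM2 and IFITM3 had fallen with puromycin by 24 h, IFITM2 to 376, 477 and 418 and IFITM3 to 1303, 1605 and 1259 at 0.09 µM, by -1.09 and -1.003. BST2, which tethers budding virus to the cell surface, was under 10 on 28 arrays and fell in 5 comparisons, all at day 5, where its vehicle arrays read 14.7, 37.5 and 43.7 in rows A-F and 209, 229 and 179 in rows G-H. None of its falls in groups of rows A-F passed against vehicle of those rows (adjusted p from 0.22 to 0.87).

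At day 5 the IFITM results depended on which vehicle arrays were used. Puromycin 0.09 µM gave 223 and 245 for IFITM1 and 1026 and 875 for IFITM3, under every vehicle array of either plate part, and the changes were -2.72 and -2.01 against all and -1.67 and -1.33 against rows A-F. ARA-C 0.17 µM gave -1.55, -0.60 and -0.81 for IFITM1, IFITM2 and IFITM3 against all vehicle arrays, but -0.50, 0.01 and -0.13 against rows A-F, where IFITM1 alone passed. Doxorubicin 59.88 nM gave -1.15, -0.45 and -0.26 against all, and -0.10, 0.16 and 0.42 against rows A-F. ARA-C 0.34 µM, whose arrays lay in rows G-H, gave -0.74, -0.31 and -0.12 against all, none past the threshold, and -1.79, -0.92 and -0.80 against rows G-H, where all 3 passed. The falls with puromycin 0.09 µM passed with either choice of vehicle, whereas with ARA-C the dose at which the 3 genes fell changed with the choice. Quantile normalization turned IFITM2 with ARA-C 0.17 µM and with both doxorubicin doses to positive values of 0.25, 0.01 and 0.34.

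Of all 42 members at day 5, comparison with vehicle of the same plate part gave 8 rises and 6 falls with ARA-C 0.17 µM (background 8.36% and 33.3%), 8 and 8 with 0.34 µM (11.8% and 18.8%), 7 and 6 with doxorubicin 59.88 nM (10.1% and 22.6%), and 5 and 9 with 119.76 nM (13.7% and 34.6%). Puromycin 0.09 µM gave 0 and 9 (1.6% and 3.3%), and the 0.18 µM array 1 and 18 (13.1% and 36%). Falls became fewer with ARA-C 0.17 µM, from 13 to 6, and with doxorubicin 59.88 nM, from 11 to 6, and more with ARA-C 0.34 µM, from 3 to 8.

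**Figure D5:**
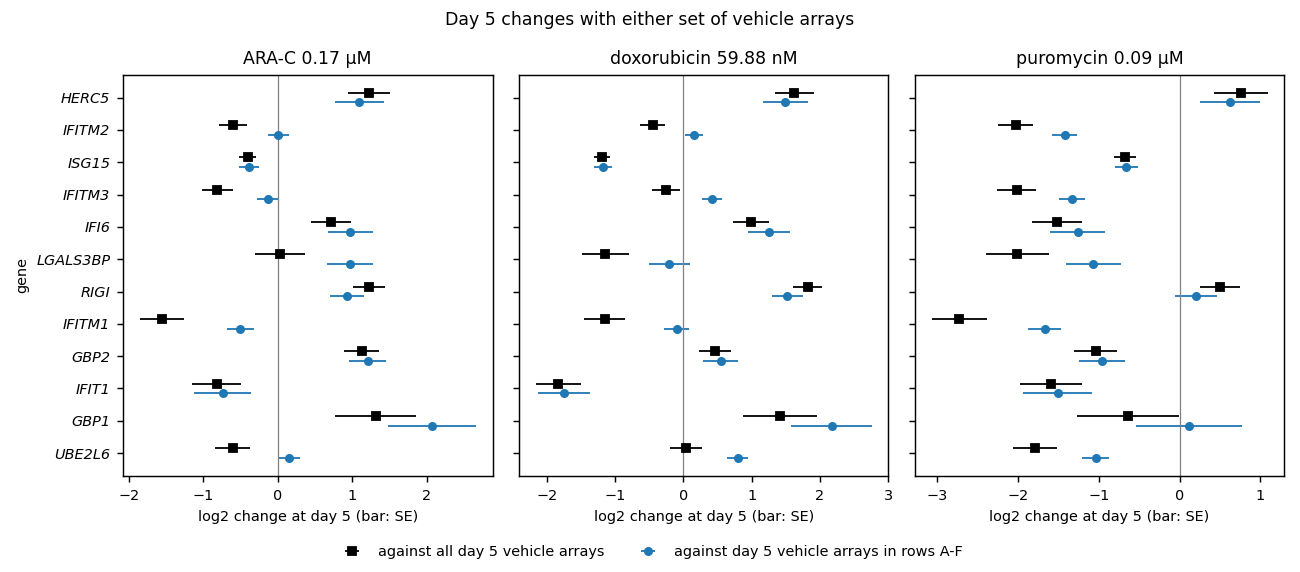
Log2 change at day 5 of the 12 members called most often, against all 6 vehicle arrays (squares) and against the 3 in rows A-F (circles), with bars for the SE, for the lower dose of each compound, whose arrays all lay in rows A-F. The IFITM1, IFITM2, IFITM3, UBE2L6 and LGALS3BP values shift upward with the second choice, and HERC5, RIGI and GBP2 stay close.

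Of the 3 sensors of nucleic acid, RIGI and IFIH1 rose with both ARA-C and doxorubicin, while IFI16 rose in 3 ARA-C comparisons and fell in 4 of ARA-C or doxorubicin. RIGI, which recognises viral RNA ends, rose in 10 comparisons and fell in none. It read 62.4, 80.4, 79.7, 102 and 102 in vehicle at day 3, 224, 189.9 and 279 with ARA-C 0.17 µM, 263, 279 and 231 with doxorubicin 59.88 nM and 93.1, 84.1 and 65.7 with puromycin 0.09 µM. The ARA-C and doxorubicin arrays were above all vehicle arrays, and the puromycin arrays overlapped them. The changes were 1.44 ± 0.22, 1.61 ± 0.22 and -0.07 ± 0.22. At day 5 vehicle read from 45.4 to 108 with a median of 81.7 and doxorubicin 59.88 nM 239, 348 and 253 (1.82 ± 0.22 against all, 1.52 within rows A-F, adjusted p = 4.6e-10 and 3.7e-07). At 24 h ARA-C raised RIGI at both doses, to 209, 174 and 176 at 0.17 µM and 178, 141 and 219 at 0.34 µM, where vehicle ranged from 66.2 to 85.5 with a median of 75.7 (1.29 and 1.22), while doxorubicin 59.88 nM at 122, 119 and 122 missed the threshold (0.67, adjusted p = 0.054).

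IFIH1, the MDA5 sensor of long double-stranded RNA, was raised by doxorubicin as early as 24 h. It read from 5.82 to 45.7 with a median of 34.7 in vehicle, 96.4, 118 and 102 at 59.88 nM and 107, 76.5 and 109 at 119.76 nM. At day 3 it read 20.5, 26.2, 12.6, 29.8 and 48.8 in vehicle, 189, 166 and 119 at 59.88 nM and 154, 85.1 and 118 at 119.76 nM. The doxorubicin and vehicle arrays did not overlap at either time (1.89 ± 0.54 and 1.76 ± 0.54 at 24 h, 2.63 ± 0.56 and 2.21 ± 0.56 at day 3). A second IFIH1 probe set passed the test in none of the 6 comparisons in which this one did and had the same sign in 4. IFI16, a DNA sensor, rose with ARA-C at day 3 to 7098, 6422 and 7219 and 9057, 8578 and 6993 from 5293, 4895, 5602, 5619.7 and 5124 (0.38 ± 0.12 and 0.62 ± 0.12), the first call being lost without the array with raised low signals. It also rose with ARA-C 0.34 µM at 24 h (0.53). With doxorubicin 119.76 nM its changes were -0.47 at day 3 and -1.37 at day 5 (-1.29 within rows A-F). At day 5 it fell with ARA-C 0.17 µM too (-0.58, and -0.50 within rows A-F). It also fell then with doxorubicin 59.88 nM (-0.29), a call absent within rows A-F (adjusted p = 0.23). Other IFI16 probe sets had the same sign in 13 of 16 values, and 1 passed the test in the opposite direction.

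Of the other induced genes, IFI6, a small protein of mitochondria and the endoplasmic reticulum, rose in 9 comparisons of ARA-C and doxorubicin and fell in 2 of puromycin. At day 3 it read 105, 64.9, 120.5, 57.0 and 108 in vehicle, 356, 344 and 499 with ARA-C 0.17 µM, 471, 306 and 448 with doxorubicin 59.88 nM and 56.5, 57.9 and 74.7 with puromycin 0.09 µM. ARA-C and doxorubicin arrays were all above vehicle by at least 2 times the highest vehicle array, and puromycin arrays overlapped vehicle. The changes of 2.17 ± 0.28 and 2.20 ± 0.28 had adjusted p of 3.7e-08 and 8.6e-09. At day 5 puromycin 0.09 µM gave 139 and 57.1 where vehicle ranged from 202 to 337 with a median of 242 (-1.52 ± 0.31, and -1.26 within rows A-F). LGALS3BP rose at day 3 with both ARA-C doses and with neither of doxorubicin. It read 222, 184, 235, 223 and 234 in vehicle at day 3, 565, 535 and 938 with ARA-C 0.17 µM, 667, 624 and 716 with 0.34 µM, 305, 351.5 and 299 with doxorubicin 59.88 nM and 175, 189 and 175 with 119.76 nM. ARA-C arrays were all above vehicle (1.59 ± 0.35 and 1.61 ± 0.35), and so were those of doxorubicin 59.88 nM, short of the threshold (0.54 ± 0.35), while those of 119.76 nM overlapped vehicle (-0.28 ± 0.35). Set against each other at the EC50, ARA-C was above doxorubicin by 1.05 ± 0.39 at day 3 (adjusted p = 0.079, not past the threshold) and by 1.17 ± 0.39 at day 5 (adjusted p = 0.024). IFI35 rose with ARA-C 0.34 µM at 24 h, to 170.1, 205 and 168, where vehicle ranged from 18.1 to 66.9 with a median of 47.1 (2.09 ± 0.43), and IFI44L rose at 24 h at both ARA-C doses (1.85 and 1.84), where 4 of the 6 vehicle arrays were under 10 and the 0.34 µM call was lost without the array with raised low signals. On the single puromycin 0.18 µM array at day 5, IFITM1 read 124, IFITM3 313, IFI6 24.7 and LGALS3BP 57.4, all under all vehicle arrays (-3.63, -3.61, -3.37 and -2.90). There IFI44L read 121, above all vehicle arrays (2.60), but low signals were shifted up on that array.

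Transcription factors and antigen-processing genes were called in few comparisons. IRF9, the DNA-binding partner of the STAT proteins, rose in no comparison and fell in 1 (ARA-C 0.17 µM, day 5, -0.80), a call absent within rows A-F (adjusted p = 0.36). IRF1, the other factor measured, rose in 5 comparisons by 0.84 to 1.04. The highest of these, with ARA-C 0.17 µM at day 3, was 0.67 without the array with raised low signals (adjusted p = 0.16), while the 0.34 µM value at 24 h went from 0.93 to 1.31. PSMB8, PSMB9 and TAP1, of the immunoproteasome and the peptide transporter, passed the test in 2 of 54 values, on arrays close to the floor. SP110, a nuclear body protein, rose in all 6 ARA-C comparisons by 0.53 to 0.96 and in none with doxorubicin. At day 3 it read 753, 820.2, 570.2, 519.5 and 639 in vehicle, 1104, 1014 and 1484 with ARA-C 0.17 µM and 579, 595 and 566 with doxorubicin 59.88 nM. Against vehicle of the same plate part the 6 ARA-C values ran from 0.41 to 1.37 and all passed, the day 5 values moving from 0.89 to 0.48 at 0.17 µM and from 0.96 to 1.37 at 0.34 µM. Doxorubicin 59.88 nM then gave falls at day 3 (-0.44, adjusted p = 0.036) and day 5 (-0.36, adjusted p = 0.031). Without the array with raised low signals the 0.34 µM rise at 24 h was lost (0.40, adjusted p = 0.24). Other SP110 probe sets had the same sign in 20 of 21 values, of which 12 passed the test. PML, which gives nuclear bodies their name, rose in 4 comparisons, but its 7 other probe sets had the same sign in only 18 of 35 values and 3 passed the test in the opposite direction.

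The compounds were also set against each other at their EC50, in 3 pairs at 3 times. ARA-C against doxorubicin gave 2 members higher at 24 h (background 2.43% higher and 3.07% lower), 6 at day 3 (7.03% and 2.32%), and 5 higher and 1 lower at day 5 (4.02% and 18.5%). ISG15 was higher with ARA-C at all 3 times, by 0.91 ± 0.13, 1.02 ± 0.13 and 0.79 ± 0.13 (adjusted p = 5.6e-06, 1.3e-07 and 9.6e-06). SP110 was higher with ARA-C at day 3 and day 5 (1.03 and 0.85), and GBP2 at 24 h and day 3 (0.89 and 0.79). Without ARA-C 0.17 µM day 3 replicate 3, the day 3 count was 2. For HERC5 at day 3 the difference between the 2 compounds was -0.32 ± 0.33 (adjusted p = 0.56) and for RIGI -0.17 ± 0.25 (adjusted p = 0.69), neither past the threshold.

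Against puromycin the gaps were wider. ARA-C was higher than puromycin for 10 members at 24 h (4.74% and 1.89%), 20 at day 3 (13.9% and 4.79%) and 12 at day 5, where 2 were lower (7.94% and 27.3%). Doxorubicin was higher for 3 at 24 h (2.58% and 0.585%), 14 at day 3, where IFIT5 was lower (9.3% and 6.81%), and 9 at day 5, where 3 were lower (7.6% and 15.4%). At day 3 the largest differences of ARA-C from puromycin were OAS1 (3.04 ± 0.61), IFI6 (2.66 ± 0.31), IFIT1 (2.63 ± 0.38) and GBP1 (2.56 ± 0.63). For doxorubicin they were OAS1 (2.83 ± 0.61), GBP1 (2.79 ± 0.63), IFI6 (2.68 ± 0.31) and IFIT1 (2.65 ± 0.38). HERC5 differed from puromycin by 0.35 ± 0.33 with ARA-C (adjusted p = 0.45), short of the threshold. Leaving out 1 array moved the ARA-C against puromycin count at 24 h from 10 to as low as 4.

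At day 3 no member was higher at the doubled dose of any compound by limma, while with doxorubicin some were lower. Between the ARA-C doses 5 members were higher at 0.34 µM at 24 h (background 10.9% and 3.39%), none differed at day 3 by limma (0.261% and 0.491%; 3 members at unadjusted p under 0.05), and 12 were higher at day 5 (34.1% and 3.79%). The 2 ARA-C doses lay in different plate parts, so that dose and plate part cannot be told apart from these arrays alone. With plate part as a block, estimated from vehicle, ISG15 alone remained at 24 h (0.53). After quantile normalization the day 5 split was 5 higher and 5 lower, with no background counted. Between the doxorubicin doses no member differed at 24 h by limma (background 0.221% and 0.158%; 3 members at unadjusted p under 0.05), and at day 3 GBP2, ISG15 and IFI16 were lower at the higher dose, by -0.96, -0.94 and -0.55 (background 0.648% and 0.648%). At day 5, 6 were lower, ISG15 and IFI16 among them (background 23%). Between the puromycin doses no member differed by limma at 24 h or day 3 (background 0% and 0%, then 0.149% and 0.207%), where 5 and 2 members were at unadjusted p under 0.05.

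The other genes of the pathway were counted over whole lists, each gene from its brightest probe set and against all vehicle arrays alone. Interferon ligands lay near the floor, and the puromycin 0.18 µM day 5 array, whose low signals were shifted up, was kept in their counts. IFNB1, the beta interferon, read from 3.74 to 29.7 in vehicle at day 3. It rose in 1 comparison, ARA-C 0.17 µM at day 3 (2.05, adjusted p = 0.011), on arrays reading 31.6, 34.5 and 174, and without the array with raised low signals the change was 1.25 (adjusted p = 0.19). Of 15 ligands measured, 5 rose in that comparison (background 14.5%) and none without that array, 2 rose with ARA-C 0.17 µM at day 5 (10.3%), 4 with doxorubicin 119.76 nM at day 5 (15.8%), 3 on the puromycin 0.18 µM day 5 array (12.8%), and none fell in any. Of 5 receptor chains none rose at day 5. With ARA-C 0.17 µM 5 of the 5 fell then (background 38%), with 0.34 µM 1 (13.6%), with doxorubicin 2 and 3 (29.2% and 37.9%) and with puromycin 2 and 4 (12.1% and 33.8%), the lower dose first. IFNAR2, a chain of the receptor for alpha and beta interferon, fell in 7 comparisons, most with doxorubicin 119.76 nM at day 5 (-2.81), and IFNAR1, its partner, in 1 (-1.62, ARA-C 0.17 µM, day 5). IFNGR1, a chain of the interferon gamma receptor, rose in the 4 doxorubicin comparisons at 24 h and day 3 and fell in 2 at day 5, IFNGR2 rose in 1 and fell in 4, and IL10RB, shared with the lambda receptor, fell in 6.

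Of the 4 kinases and STAT proteins analysed here, TYK2 fell in 8 comparisons and rose in none. JAK1 rose in 1 and fell in 4, by up to -1.16 on the puromycin 0.18 µM day 5 array. JAK2 fell in 5, and STAT3 rose in 1 and fell in 7. Of the 7 inhibitors, SOCS1, which is itself induced by interferon, rose with ARA-C 0.17 µM at day 3 (1.59) and with both doxorubicin doses at day 3 (1.45 and 1.70). Its ARA-C call was lost without the array with raised low signals (adjusted p = 0.093). IRF2 rose in 1 and fell in 7, PTPN2 rose in 2 and fell in 3, PTPN6 rose in 3, and PIAS1 and PTPN11 fell in 4 and 3.

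Of genes that promote or restrain interferon production, 12 were measured. MAVS, the adaptor below RIGI and IFIH1, rose in 8 comparisons, all of ARA-C or doxorubicin, and fell in 2. Its largest rise was with doxorubicin 119.76 nM at 24 h (1.33, adjusted p = 4.1e-08). MYD88, the adaptor of Toll-like receptors, also rose in 8 comparisons of ARA-C or doxorubicin, by 0.53 to 0.84, and fell in 2 of puromycin 0.18 µM, by -0.87 at day 3 and -1.79 at day 5. TLR3, which senses double-stranded RNA in endosomes, rose in 3 ARA-C comparisons, by 1.96 and 2.02 at day 3 and 1.40 at day 5. Without the array with raised low signals the 0.17 µM value was 1.54 (adjusted p = 0.095). IRF3, the factor that switches on IFNB1, rose in 2 comparisons and fell in 8, TREX1 rose in 1 and fell in 4, TICAM1 rose in 1 and fell in 2, and TBK1, SAMHD1 and IKBKE fell in 6, 6 and 5 and rose in none. Of 4 chemokines, CCL5 rose in 4 comparisons, by 1.35 with ARA-C 0.17 µM at day 3, 1.39 at day 5, 2.24 with doxorubicin 119.76 nM at day 5 and 3.05 on the single puromycin array. The day 3 call was lost without the array with raised low signals (1.13, adjusted p = 0.25), and low signals were shifted up on the single puromycin array too.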

How the data were processed

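RNA of A673 cells (Trizol) was hybridised to 68 Affymetrix high-throughput human arrays. The authors made the deposited signals, linear intensity values, with MAS5 (version not given in the sources used here), scaling each array to a common level. Groups came from the labels, which call the replicates biological, and plate positions from the study's list of arrays. The members and lists were chosen with earlier results of these data known.

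Signals under 10 were set to 10 and log2-transformed. Puromycin 0.09 µM day 5 replicate 3, which carried blood cell transcripts, was left out, leaving 67 arrays. Of the probe sets, 715 controls were left out and 22215 tested: 19230 had 1 symbol in the platform annotation, 125 several and 2860 none. A gene was read from the probe set of highest mean signal. Means of 21 groups were fitted with limma 3.58.1 in R 4.3.3 (empirical Bayes with an intensity trend, 46 residual degrees of freedom, 8.89 prior), and p-values were Benjamini-Hochberg adjusted within each comparison. The script was tested on simulated data. The number of arrays limits the precision. Every member may be named. Values by array are given for the 12 members called most often and those of largest change. Other pathway genes were named when called in 3 or more of 18 comparisons, with IFNB1, IFNAR1, IFNAR2, JAK1 and TYK2 named regardless. Alternatives were quantile normalization, a floor of 32, a cap of 16000, removal of probe sets under the 40th percentile, no trend, plate part or replicate number as a block, vehicle of 1 plate part, the left-out array kept, and each array left out (66 fits). Promoter sequences were RefSeq's (GRCh38.p14).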

Additional observations from a re-analysis of the deposited data

Results flagged for a closer look

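LGALS3BP in vehicle day 3 replicate 2 read 183.9, far from the other 4 arrays (gap over range 0.766). The test was made in 36 groups, and chance flags about 1 in 20.

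The change against vehicle differed between day 5 and day 3, by a test of the difference itself in limma, for 9 of the 12 members called most often. The 12 were chosen by their calls in comparisons that include these, and the share of all probe sets that differed was not counted. The 9 is therefore no measure of how common such a difference is among the members. With ARA-C 0.17 µM the day 5 change minus the day 3 change was -1.70 for IFIT1 (adjusted p = 0.0034), -1.36 for GBP2 (0.00083), -2.32 for IFITM1 (2.5e-05), -1.37 for IFITM2 (5.4e-05), -1.31 for IFITM3 (0.00037), -1.15 for ISG15 (3.2e-07), -1.96 for UBE2L6 (8.8e-06), -1.46 for IFI6 (0.002) and -1.555 for LGALS3BP (0.0095). With doxorubicin 59.88 nM it was -2.74 for IFIT1 (5e-05), -1.23 for GBP2 (0.0072), -2.38 for IFITM1 (8.8e-05), -1.70 for IFITM2 (1.1e-05), -1.32 for IFITM3 (0.0013), -0.92 for ISG15 (7.5e-05), -1.77 for UBE2L6 (0.00021), -1.21 for IFI6 (0.026) and -1.68 for LGALS3BP (0.014). Against vehicle of rows A-F alone the values were smaller for the IFITM genes and LGALS3BP. There ARA-C gave -1.46 for IFITM1, -0.65 for IFITM2, -0.64 for IFITM3 and -0.73 for LGALS3BP (adjusted p = 0.27), and doxorubicin gave -0.64 for IFITM3 (adjusted p = 0.088), -1.03 for IFI6 (adjusted p = 0.25) and -0.86 for LGALS3BP (adjusted p = 0.38), so that these 4 calls were lost. The part of RNA quality in these differences was not tested.

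Puromycin 0.09 µM day 5 replicate 3 was left out of the fit. On that array 17 members were higher than on each day 5 vehicle array. It carried blood cell transcripts, and 0.176% of its signals lay under the floor, against a median of 19.9% across the 67 arrays in the fit. Some gaps were small, such as IFIT2 at 13.46 against a highest day 5 vehicle value of 6.874. Others were large, such as TRIM22 at 2933 against 37.27 and EIF2AK2 at 2314 against 326.2. What raised these members on that array was not tested. The share of all probe sets that were higher was not counted, so the 17 is no trait of these genes.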

How the results depend on the processing

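Quantile normalization turned the sign of IFIT5 (0.22), IFITM2 (0.25), ISG15 (0.40) and UBE2L6 (0.23) with ARA-C 0.17 µM at day 5, of IFITM2 with doxorubicin 59.88 nM (0.0123) and 119.76 nM (0.34) at day 5, of SP110 (0.46) on the puromycin 0.18 µM day 5 array, and at day 5 of IFIT5 between ARA-C doses (-0.0341) and IFI16 between puromycin doses (0.20). It gave 11 members called with ARA-C 0.34 µM at 24 h, and 4 each for ARA-C against doxorubicin and against puromycin at 24 h. Vehicle of the same plate part turned IFITM2 (0.0102) and UBE2L6 (0.15) with ARA-C 0.17 µM and IFITM2 with doxorubicin 59.88 nM (0.16), all at day 5. The count for doxorubicin 59.88 nM at 24 h, 3, became 5 with a floor of 32, a cap of 16000, no trend or vehicle of the same plate part, and 6 without dim probe sets. A floor of 32 gave 4 for ARA-C against doxorubicin at 24 h and 13 at day 3. Without the 2 arrays of raised low signals, an alternative chosen after seeing the data, the counts were 12 for ARA-C 0.17 µM at day 3, 13 for ARA-C 0.34 µM at 24 h, 6 for doxorubicin 59.88 nM at 24 h and 2 for ARA-C against doxorubicin at day 3. The cause of these shifts was not tested.

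With the left-out array kept, ARA-C 0.17 µM gave 5 at 24 h and 14 at day 3, ARA-C 0.34 µM 11, 11 and 9 at the 3 times, doxorubicin 1 and 2 at 24 h, puromycin 3 for 0.18 µM at 24 h and 21 for 0.09 µM at day 5, and vehicle day 3 against 24 h 0 by limma. ARA-C against doxorubicin gave 0, 2 and 2, ARA-C against puromycin 4 and doxorubicin against puromycin 1 at 24 h. Day 5 differences turned for ADAR (0.0128 for ARA-C and 0.0598 for doxorubicin against puromycin) and ISG15 (1.05 for doxorubicin against puromycin).

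Leaving out each array in turn gave, with ARA-C 0.17 µM, counts of 5 to 9 at 24 h (lowest without its replicate 2), 12 to 26 at day 3 (without replicate 3 and replicate 1) and 14 to 21 at day 5. With ARA-C 0.34 µM they were 13 to 20 (without replicate 2), 13 to 18 and 9 to 15 (without replicate 1). Doxorubicin gave 1 to 4 (without replicate 1), 12 to 14 and 12 to 16 at 59.88 nM, and 4 to 6, 12 to 14 and 13 to 20 at 119.76 nM. Puromycin gave 4 to 5, 4 to 6 and 8 to 15 at 0.09 µM, and 3 to 5 (without vehicle replicate 3), 6 to 9 and 17 to 19 at 0.18 µM. In vehicle, day 3 against 24 h gave 1 to 3 (without 24 h replicate 1), day 5 against 24 h 13 to 19 and day 5 against day 3 14 to 19. ARA-C against doxorubicin gave 1 to 2, 2 to 10 (ARA-C replicates 3 and 1) and 3 to 6 (ARA-C replicate 2), ARA-C against puromycin 4 to 8 (ARA-C replicate 1), 14 to 25 and 8 to 14 (puromycin replicate 1), and doxorubicin against puromycin 1 to 3 (doxorubicin replicate 2), 13 to 14 and 8 to 12.

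Same-numbered replicates of different groups did not deviate together (1 of 43 correlations over 0.1, from -0.099 to 0.114). A replicate block moved no count of calls by over 1.5 times, and 39 of 388 gene values lost their call.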
